A study of Mus musculus with 16 samples.

Results

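The constitutive H3K27ac regions of the intestinal epithelium are the stretches of the mouse genome that carried a peak of this histone mark in every library of the series. The peaks of the 8 libraries were merged where they overlapped or touched, which gave 79482 regions. A library had a region when at least 1 bp of its peaks lay in it. Regions in which any library had a single peak of 10000 bp or more were left out. By this rule 11910 regions were constitutive, 15.0% of all regions. They were chosen by the measured presence and length of peaks in these same lists, so their presence, and every comparison with other regions, is a description.

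The libraries come from chromatin immunoprecipitation and sequencing (ChIP-seq) of small intestinal epithelial cells of mice on a mixed C57BL/6 CD1 background, with 2 libraries in each of 4 groups. Embryonic cells were sorted at the embryonic days E12.5 and E14.5 as EpCAM+, CD31- and CD45-. Adult Lgr5+ intestinal stem cells (ISC) and enterocytes came from Lgr5EGFP-Cre-ERT males at postnatal day 60. In that line EGFP is made from the Lgr5 locus, and ISC were taken for high EGFP, while enterocytes were taken as EpCAM+, CD31- and CD45-. EpCAM lies on epithelial cells in general, so the enterocyte gate alone does not part absorptive from other epithelial cells. No source used here gives the genotype or sex of the embryos, or says whether animals were pooled for a library. The libraries of a group are described as biological duplicates, and every p-value here measures only the spread between these libraries.

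H3K27ac is the acetylation of lysine 27 of histone H3, which the acetyltransferases p300 and CBP place on nucleosomes beside active promoters and enhancers. The nucleosome-free site where transcription factors or RNA polymerase bind often appears as a dip between acetylated flanks. Promoters of genes that all cells use tend to be marked in every cell type, and enhancers differ more between cell types. The regions below are named by position on the mouse build mm9. No gene is assigned to them, because the gene table used here is on another build, and the labelled cell types were not checked against marker genes for the same reason.

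The libraries held 34.6 to 54.6 M ChIP tags. The second ISC library stood apart in its total length under peaks, 76.1 Mb against 38.8 to 65.1 Mb in the other 7. Counts of changed regions that moved by more than 1.5 times without it are pointed out.

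Presence was uneven. Of the 79482 regions, 26359 were found in a single library and 15084 in 2 libraries. Only 2327 were found in 7 libraries, and 12282 in all 8. A region was thus more often present everywhere than in any given number of libraries from 3 to 7. Of the 12282 regions, 372 (3.03%) were left out for a long peak.

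**Figure D1:**
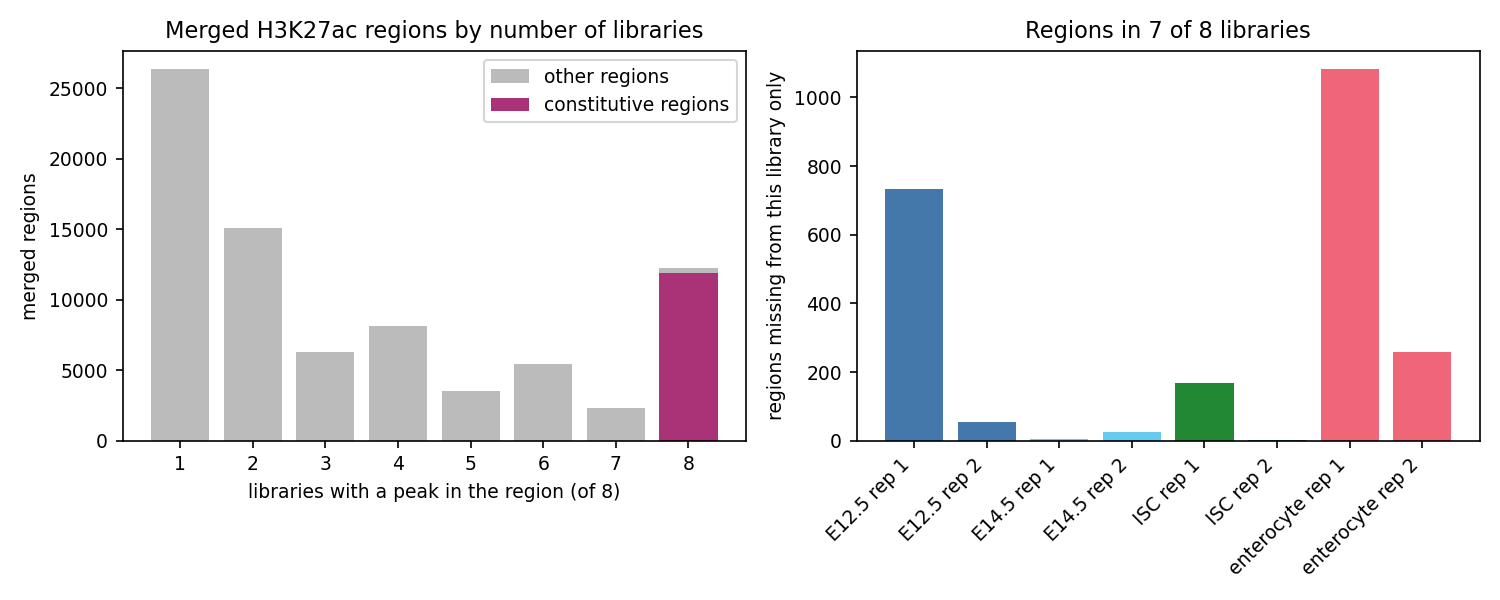
Left, number of merged regions (y axis) by the number of libraries with a peak in them (x axis), with the constitutive regions in purple. Right, the regions found in 7 of 8 libraries by the 1 library that lacked them, coloured by group; the first enterocyte library lacked 1082 and the first E12.5 library 733.

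The regions just short of constitutive were mostly missing from 2 libraries. The first enterocyte library alone lacked 1082 of the 2327 regions, and the first E12.5 library alone lacked 733. The second enterocyte library lacked 259, the first ISC library 167, and the second E12.5 library 55. The E14.5 libraries lacked 4 and 26, and the second ISC library 1. At the level of groups, 3491 regions were present in both libraries of the other 3 groups and in neither enterocyte library, and 1429 were missing in this way from E12.5. The same count was 86 for ISC and 16 for E14.5. The 3 lists with the least covered length were those of the enterocytes (38.8 Mb each) and the first E12.5 library (43.6 Mb), and the part of list size in these counts was not tested.

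At the 10000 bp limit, the longest single peaks among the constitutive regions measured 9969 bp, at chr10:125397688-125407709, and 9964 bp, at chr2:153167493-153177658. The regions left out by the smallest margin had peaks of 10008 bp, at chr16:97859932-97881816, and 10009 bp, at chr11:23974066-23984074. Both constitutive regions had their longest peak in the second ISC library, the one with the most covered length. In the chromosome 10 region, cover in the E12.5 libraries was 2214 and 3810 bp, in E14.5 3158 and 2477 bp, in ISC 7317 and 9969 bp, and in enterocytes 6092 and 5605 bp.

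The constitutive regions took up about as much of each library as all its other peaks together. They held 54.1 and 48.3% of the covered length of the E12.5 libraries, 48.7 and 51.7% at E14.5, 55.5 and 46.6% in ISC, and 57.1 and 59.3% in enterocytes. The share of peaks was smaller, from 28.2% in the second ISC library to 49.3% in the first enterocyte library. The enterocyte libraries, with the shortest lists (36439 and 35614 peaks), had the highest shares of both. The mean share of covered length was 54.6 ± 5.59% in the adult libraries and 50.7 ± 2.73% in the embryonic ones (SD, n = 4 each), a difference of 3.92 points that was within the adult SD. It moved when single libraries were left out, which also re-draws the set of constitutive regions. The set held 12364 regions without the second ISC library and 12638 without the first E12.5 library. The same holds for the other means given below with a library left out. Without the second ISC library the shares were 59.0 ± 2.29% (SD, n = 3) and 52.1 ± 2.88% (SD, n = 4), and the difference of 6.96 points was larger than either SD. It was 6.70 points without the first E12.5 library, and 1.70 and 1.97 points without the first and the second enterocyte library.

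The constitutive regions had a median length of 2814 bp, with 1988 bp at the 25th and 4189 bp at the 75th percentile, and the range was 447 to 21564 bp. The other regions had a median of 598 bp, and regions of a single library 307 bp. Merging joins staggered peaks, so a constitutive region grows with every library added, and its length is in part a product of the rule. The stretch that all 8 libraries covered at once was therefore measured too. It had a median of 956 bp (528 to 1527 bp from the 25th to the 75th percentile) and made up a median of 36.3% of the region. In 2938 regions (24.7%) it spanned at least 50% of the region.

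In 232 constitutive regions (1.95%) no base was covered in all 8 libraries. Such regions were joined through staggered peaks, and for them "constitutive" describes the neighbourhood and not a shared site. One was the region at chr13:73886334-73891150, where cover was 668 and 2471 bp at E12.5, 4433 and 2694 bp at E14.5, 2818 and 3994 bp in ISC, and 648 and 1054 bp in enterocytes. At the other end, the longest uninterrupted stretches covered in all libraries ran over 6252 bp at chr5:32435096-32441347, over 5724 bp at chr1:137714453-137720176 and over 5677 bp at chr7:28008694-28014370. In the first of these regions cover ranged from 7070 bp in the first E12.5 library to 9503 bp in the second ISC library, and the enterocyte libraries had 8841 and 8290 bp. In the chromosome 1 region the enterocyte libraries had the shortest cover, 5724 and 6062 bp, against 6509 to 7518 bp in the other 6.

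Most constitutive regions were a single peak in most libraries. A region held 1.73 and 1.51 peaks on average in the E12.5 libraries, 1.39 and 1.48 at E14.5, 1.59 and 1.23 in ISC, and 1.51 and 1.47 in enterocytes. In 2990 regions (25.1%) every library had exactly 1 peak, and in 324 every library had 2 or more. Where a library had more than 1 peak in a region, the median gap between neighbours was 134 to 185 bp. Means per age were 1.45 ± 0.154 peaks in the adult and 1.53 ± 0.144 in the embryonic libraries (SD, n = 4 each), a difference smaller than either SD; with a library left out it ran from −0.126 to −0.00362.

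The highest point of the mark lay close together in neighbouring groups and further apart between E12.5 and enterocytes. For each region and library, the summit of the peak with the highest pileup was taken, and its distance between libraries was measured. Replicates had a median distance of 69 bp at E12.5, 48 bp at E14.5, 42 bp in ISC and 56 bp in enterocytes. Libraries of different groups lay 50 to 109 bp apart in the median of a pair, with the largest values between E12.5 and enterocytes (91 to 109 bp), above all 4 replicate pairs. The summits of E14.5 and ISC lay 50 to 54 bp apart, within the range of the replicate pairs. Over all 8 libraries, the summits of 4485 regions (37.7%) fell within 200 bp of each other, and the median spread was 302 bp.

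Constitutive regions ranked high in every list. By fold enrichment over the local background, the authors' value for each peak, the median over the regions was the 77th percentile in the first enterocyte list and between the 80th and 87th percentile in the other 7. Its best peak exceeded the 75th percentile in all 8 lists in 3804 regions (31.9%). A part of the set was weak, however: 6.12% of the regions were at or under the 25th percentile in the first enterocyte list, 4.25% in the first E12.5 list, and 0.151% in the second ISC list. The smallest cover among the 8 libraries was under 300 bp in 846 regions (7.10%) and at least 1000 bp in 6312 (53.0%). The shortest peak a list can hold is about 1 fragment long, 207 to 234 bp here, so those 846 regions rested on near-minimal peaks in some library.

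Within the constitutive set, each library could be ranked over the same 11910 regions, and the order was far from constant. The percentile of a region by fold enrichment differed by a median of 47.2 points between its highest and its lowest library. Only 687 regions stayed within 20 points in all 8 libraries. The top 10% held about 1191 regions in each library, but 26 were in it in all 8, and 36 were in the bottom 10% in all 8. There were 206 regions that stood in the top 10% of some library and in the bottom 10% of another.

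The steadiest high rank belonged to chr7:134118836-134121931, which stood at or above the 97.6th percentile of the constitutive regions in every library. Its cover was 1999 and 2826 bp at E12.5, 2599 and 2451 bp at E14.5, 2516 and 2790 bp in ISC, and 2645 and 2802 bp in enterocytes, and its 8 summits lay within 31 bp. The next by this measure were chr17:34252781-34261422 (at least the 96.75th percentile in every library), chr11:69731692-69734933 (96.0th), chr18:39644158-39651885 (95.5th) and chr2:72813341-72819933 (95.4th). The chromosome 17 region was the widest of the 5, with 6605 to 8476 bp of cover, while the chromosome 11 region had 1978 to 3002 bp. A high rank thus came with both narrow and wide regions.

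The lowest ranks in every library belonged to chr11:3101531-3102645 (at most the 2.04th percentile), chr15:79346485-79347752 (at most the 3.60th) and the chromosome 13 region without a common base described above (at most the 4.15th). The chromosome 11 region had 867 and 964 bp of cover at E12.5, 1059 and 935 bp at E14.5, 917 and 1115 bp in ISC, and 419 and 490 bp in enterocytes. Fold enrichment there was 2.71 to 5.21. These regions were present in every list without being strong in any.

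The ranks of the constitutive regions were alike in replicates and less alike between groups, least so between E12.5 and enterocytes. By covered length, the Spearman correlation over the 11910 regions was 0.93 to 0.97 for the 4 replicate pairs. For libraries of different groups its mean was 0.82 between E12.5 and E14.5, 0.80 between E14.5 and ISC and 0.72 between ISC and enterocytes (4 pairs each). Groups further apart in the order E12.5, E14.5, ISC and enterocytes had lower values. They were 0.64 between E12.5 and ISC, 0.62 between E14.5 and enterocytes and 0.47 between E12.5 and enterocytes. ISC and enterocytes were of the same age, so this order is not one of age alone. By fold enrichment the same order held between groups, from 0.70 for E12.5 and E14.5 to 0.41 for E12.5 and enterocytes, and replicates had 0.71 to 0.84. The E12.5 replicates, at 0.715, were less alike than pairs of E12.5 and E14.5 at 0.718 and 0.726. These correlations describe regions that share their libraries and are given without a test.

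**Figure D2:**
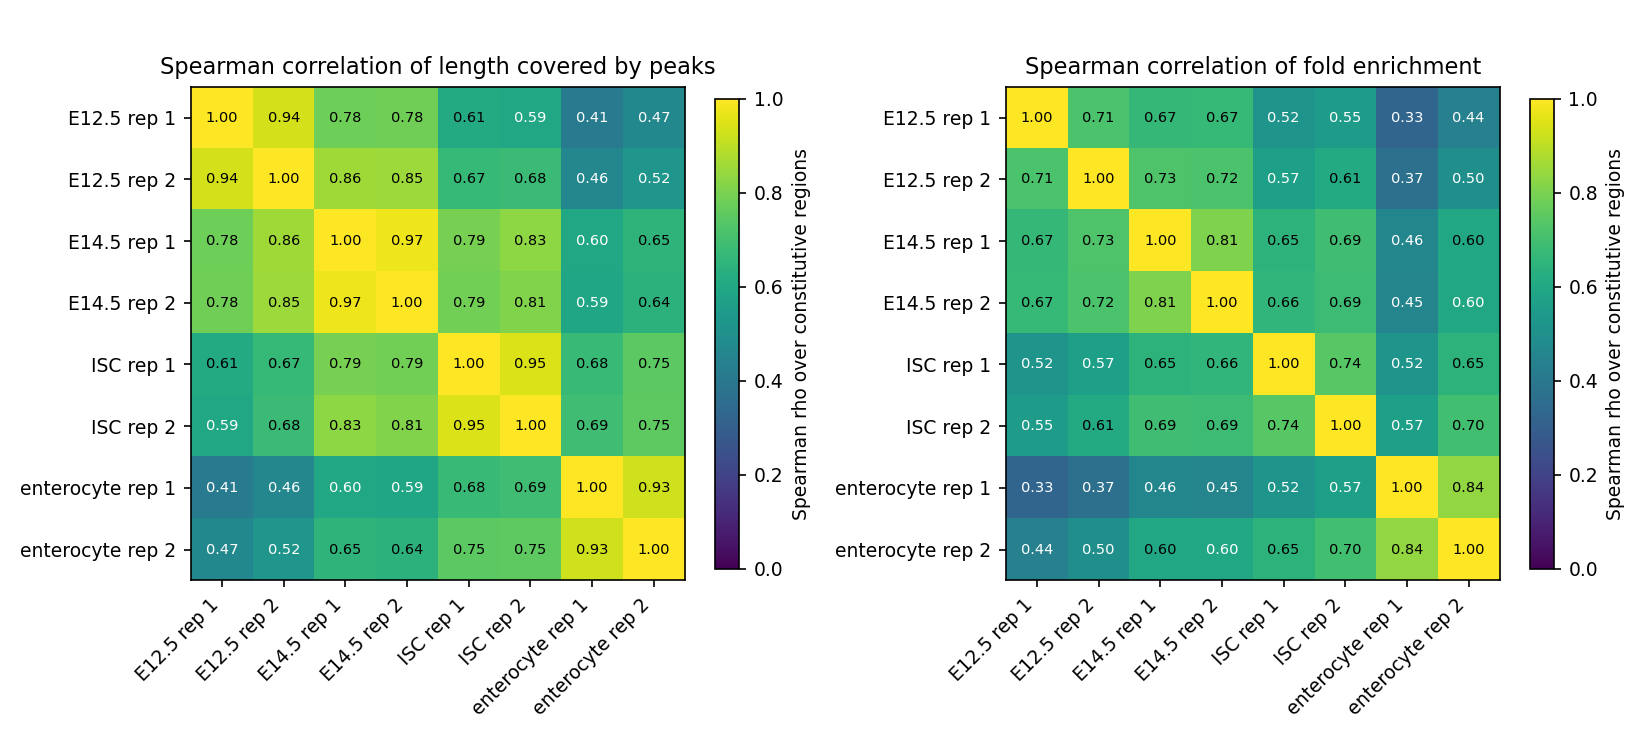
Spearman correlation between each pair of the 8 libraries over the 11910 constitutive regions, for the length covered by peaks (left) and the highest fold enrichment (right); colour and number give rho. By covered length the replicate pairs have 0.93 to 0.97 and the pairs of E12.5 and enterocytes 0.41 to 0.52.

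Cover per region was shortest in enterocytes. The median over the constitutive regions was 1367 and 1475 bp in the enterocyte libraries, 1917 and 2416 bp in ISC, 2212 and 2054 bp at E14.5, and 1701 and 2073 bp at E12.5. Both enterocyte libraries lay below the other 6. By group means, enterocytes had the shortest cover in 67.8% of the regions, E12.5 in 25.3%, ISC in 3.74% and E14.5 in 3.17%. The longest cover was in ISC in 39.5%, at E14.5 in 30.7%, at E12.5 in 20.2% and in enterocytes in 9.65%, and the second ISC library alone was the longest of the 8 in 46.7%.

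The enterocyte lists were also short as a whole. When cover was scaled by each library's total length under peaks, the group medians drew together, at 1988 bp at E12.5, 1889 bp at E14.5, 1861 bp in ISC and 1960 bp in enterocytes. Enterocytes then had the shortest cover in 31.4% of the regions and the longest in 39.6%. Whether constitutive regions are shorter or longer in enterocytes therefore turns with the scaling. Mean cover per region was 2289 ± 513 bp in the adult and 2386 ± 290 bp in the embryonic libraries (SD, n = 4 each), a difference of −96.9 bp within both SDs. Without the second ISC library the means were 2043 ± 270 bp (SD, n = 3) and 2360 ± 286 bp (SD, n = 4), and the difference of −317 bp was larger than either SD. It was −169 bp without the first E12.5 library, −62.6 bp without the second E14.5 library and −10.8 bp without the first enterocyte library, and turned to 0.287 bp without the first E14.5 library and to 5.69 bp without the second enterocyte library.

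**Figure D3:**
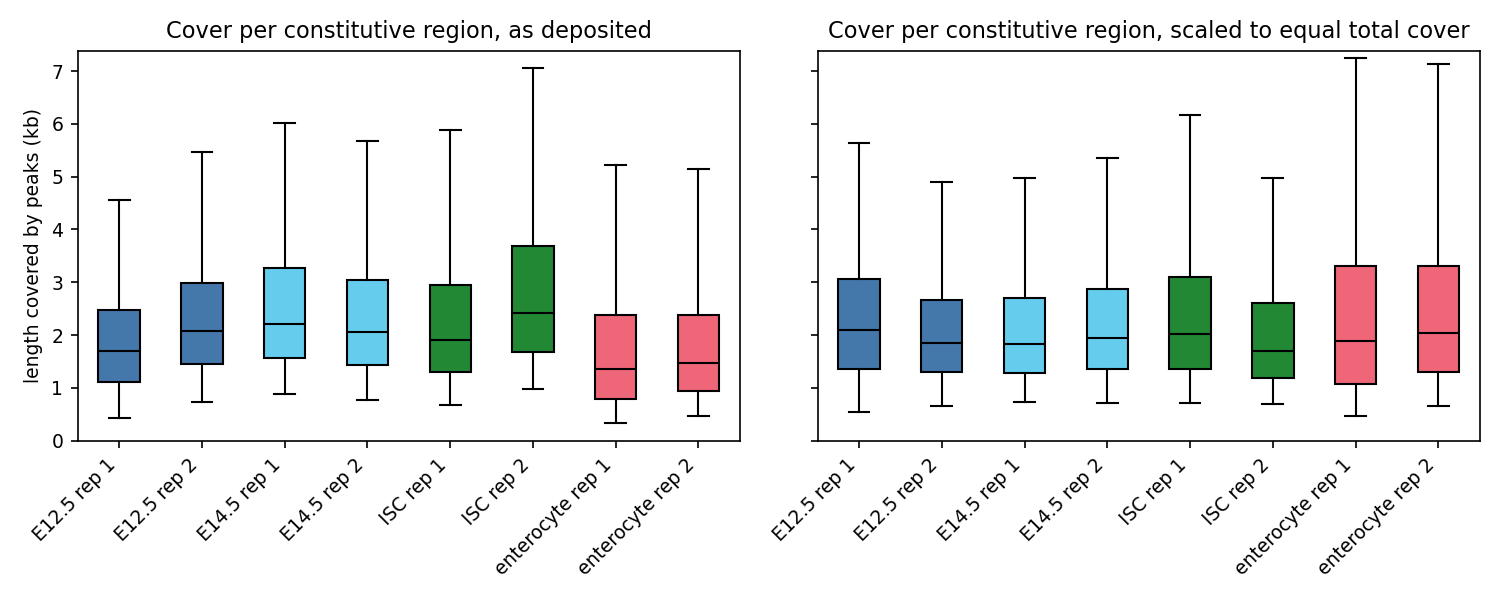
Length covered by peaks in each of the 11910 constitutive regions (y axis, kb) for each library, as deposited (left) and scaled to equal total cover (right). Boxes span the 25th to 75th percentile with the median as a line and whiskers from the 5th to the 95th percentile; the enterocyte medians of 1.37 and 1.48 kb as deposited are the lowest.

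Presence everywhere did not mean equal extent. Between the group with the longest and the group with the shortest mean cover, the median ratio was 1.91 as deposited and 1.67 after scaling. As deposited, the ratio was under 1.5 in 3002 regions (25.2%) and at least 4 in 1307 (10.97%). After scaling it was under 1.5 in 4533 regions (38.1%) and at least 4 in 1100 (9.24%). The 2 classes described next are those as deposited. The steady regions had a median length of 2619 bp, of which all 8 libraries covered 57.7%, and a median summit spread of 262 bp. The regions with a ratio of at least 4 were longer, with a median of 4183 bp, but all libraries shared only 8.96% of it, a median of 312 bp, and the summit spread was 588 bp. Short cover in any library limits the shared stretch, so this share is tied to the ratio by construction. Of these 1307 regions, 144 (11.02%) had no common base, and enterocytes had the shortest mean cover in 775 and E12.5 in 474.

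The regions with the most even cover, after scaling, lay at chr17:84576701-84583812, chr15:81019579-81022418, chr7:150253814-150256960, chr4:43573118-43577265 and chr7:4087391-4090511. Their coefficients of variation over the 8 libraries were 3.58, 4.98, 5.17, 5.60 and 6.02%, against a median of 24.3% for the constitutive regions. In the first of them cover was 3786 and 5349 bp at E12.5, 5897 and 5182 bp at E14.5, 5039 and 6913 bp in ISC, and 3530 and 3549 bp in enterocytes. As deposited, the second ISC library was the highest and the enterocyte libraries the lowest, which is also the order of the libraries' total cover at its ends.

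The widest constitutive regions, by the smallest cover among the 8 libraries, were led by chr17:6975419-6989218. It had 10741 and 13519 bp at E12.5, 13094 and 12133 bp at E14.5, 9402 and 12452 bp in ISC, and 12039 and 10489 bp in enterocytes, with 8568 bp common to all. The next were chr19:43838911-43853568 (9035 to 13712 bp), chr15:82174260-82185720 (8995 to 11158 bp), chr7:80676126-80687501 (8629 to 11008 bp) and chr18:84238957-84260520 (8436 to 20599 bp). The last of these was the only 1 of the 5 in which cover passed the test between adult and embryo (log2 change −0.59, SE 0.09, adjusted p = 0.00299, limma). Its embryonic libraries had 16929 to 20599 bp and its adult libraries 8436 to 15243 bp, without overlap. It also fell from E14.5 to ISC (−0.59, adjusted p = 0.0202, limma). From ISC to enterocytes, scaled cover rose in the regions on chromosomes 17, 19 and 15. The log2 changes were 0.71, 0.65 and 0.62 (adjusted p = 0.00437, 0.0248 and 0.0337, limma). As deposited, the ISC and enterocyte libraries overlapped in each of these regions.

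For the tests, log2(scaled cover + 500 bp) was fitted with limma over all 53123 regions with a peak in at least 2 libraries, and p-values were adjusted over all of them by the Benjamini-Hochberg method. The changes below are on that scale, which understates the change of short cover. The rule bars regions that vanish in any library, and such regions make up much of the background, so the shares of constitutive regions called are set beside the background and nothing is read from the difference.

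Between E12.5 and E14.5, 785 constitutive regions had longer cover at E14.5 and 253 had shorter cover (adjusted p under 0.05), or 8.72% of the set. Over all regions tested, 13.8% were higher and 11.3% lower, 25.1% in all. The median change was −0.11 over the constitutive regions and 0 over all regions. The regions that rose most had short cover at E12.5 and wide cover in every later library.

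At chr1:91369155-91379876 cover was 214 and 662 bp at E12.5, 6326 and 5767 bp at E14.5, 8343 and 10337 bp in ISC, and 8207 and 8042 bp in enterocytes (log2 change 2.68 at E14.5, SE 0.19, adjusted p = 0.000459). At chr11:120943408-120953027 it was 349 and 1252 bp at E12.5, 8184 and 7888 bp at E14.5, and 8623 to 9620 bp in the 4 adult libraries (2.63, SE 0.28, adjusted p = 0.00181). At chr1:37552740-37562905 it was 357 and 1791 bp at E12.5, 8383 and 8227 bp at E14.5, and 6712 to 9785 bp in the adult libraries (2.48, SE 0.37, adjusted p = 0.00614). All libraries after E12.5 lay above both E12.5 libraries in these 3 regions.

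The largest falls at E14.5 had 3 different sequels. At chr10:107839164-107847722 cover fell from 5329 and 6043 bp to 2310 and 1111 bp (log2 change −1.74, SE 0.29, adjusted p = 0.00958), was 7955 and 8484 bp in ISC, and 1757 and 2545 bp in enterocytes. This region alternated, with E12.5 and ISC high and the other groups low. At chr10:75559075-75561503 it fell from 2186 and 2419 bp to 666 and 523 bp (−1.52, SE 0.12, adjusted p = 0.000651) and was 889 to 1610 bp in the adult libraries. At chr12:111440710-111447232 it fell from 6343 and 6497 bp to 3233 and 1681 bp (−1.50, SE 0.30, adjusted p = 0.0186), then lay at 541 and 1369 bp in ISC and 484 and 787 bp in enterocytes.

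Without scaling, 61.7% of the calls over all regions tested were higher at E14.5, against 55.0% with scaling. Among the constitutive regions 784 were then higher and 26 lower, so that 96.8% of calls were higher against 75.6% with scaling. With scaling, fewer constitutive regions were called in both directions without either E14.5 library, and fewer were lower without the first E12.5 library. Without either E14.5 library the calls over all regions tested leaned to lower, while those of the constitutive regions leaned to higher. The direction of the calls over all regions thus depended on single E14.5 libraries. The median change over all regions stayed at 0. Over the constitutive regions it was −0.07 without the first and −0.14 without the second E14.5 library. Each of these fits leaves a group with a single library. The chromosome 12 call was lost without the first E12.5 library, without the second E14.5 library, without scaling and when only peaks with −log10 q of 10 or more were kept (adjusted p = 0.123, 0.100, 0.0739 and 0.0692). That of chr10:107839164-107847722 was lost without either of the same 2 libraries (0.0771 and 0.0525), and that of chr1:37552740-37562905 without the second E14.5 library (0.0672). The log2 change of chr1:91369155-91379876 was 1.58 without the second ISC library, and that of chr10:75559075-75561503 was −0.88 without the second E12.5 library; both regions are re-drawn when a list is left out.

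Between E14.5 and ISC, the constitutive regions changed about evenly in both directions: 911 had longer and 756 shorter cover in ISC, 14.0% of the set. Over all regions tested 16.1% were higher and 19.7% lower (35.9% in all), and the median change of the constitutive regions was −0.03. The regions with the largest rise had short cover in the embryo.

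At chr9:71431391-71441130 cover was 921 and 1057 bp at E12.5, 778 and 286 bp at E14.5, 6556 and 9631 bp in ISC, and 9649 and 9338 bp in enterocytes (log2 change 2.97 in ISC, SE 0.19, adjusted p = 0.000219). At chr15:86008214-86020921 it was 975 and 1232 bp, 1031 and 747 bp, 10116 and 11953 bp, and 9060 and 8148 bp in the same order (2.97, SE 0.13, adjusted p = 9.43e-05). These 2 regions were also the ones with the largest rise between embryo and adult. A different course was seen at chr6:18316830-18324296, which had 1088 and 1723 bp at E12.5, 1129 and 475 bp at E14.5, 6472 and 7467 bp in ISC, and only 424 and 408 bp in enterocytes (2.48, SE 0.22, adjusted p = 0.000647). It was wide in stem cells and narrow in the 3 other groups.

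The largest falls in ISC were at chr17:35210642-35215623, chr8:84938534-84943168 and chr12:55302236-55307524. The chromosome 17 region had 3660 to 4934 bp in the embryo, 227 and 1390 bp in ISC, and 606 and 616 bp in enterocytes (log2 change −2.16, SE 0.33, adjusted p = 0.00492). It stayed narrow in both adult groups. The chromosome 8 region had 3008 to 4285 bp in the embryo, 358 and 813 bp in ISC, and 3203 and 2368 bp in enterocytes (−2.14, SE 0.18, adjusted p = 0.000539). The chromosome 12 region had 457 and 1285 bp at E12.5, 4547 and 4514 bp at E14.5, 487 and 999 bp in ISC, and 4076 and 3360 bp in enterocytes (−2.03, SE 0.24, adjusted p = 0.00170). In the last 2 regions enterocytes again had several times the cover of the stem cells, and both rises from ISC passed the test (2.16 and 2.35, adjusted p = 0.000511 and 0.000967).

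Without scaling, 46.6% of the calls over all regions tested were higher in ISC, against 44.95% with scaling. Among the constitutive regions 768 were then higher and 376 lower, so that 67.1% of calls were higher against 54.6% with scaling. Leaving out the first or the second E14.5 library gave 437 and 430 higher and 319 and 249 lower, 479 were higher without the first ISC library, and 502 lower without the second. The call of the chromosome 17 region was lost without the second E14.5 library (adjusted p = 0.0916) and with peaks merged within 1 kb (0.0557).

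Between ISC and enterocytes, more constitutive regions changed than at the other steps: 2043 had longer and 1169 shorter scaled cover in enterocytes, 26.97% of the set. Over all 53123 regions tested 7724 were higher and 21.6% lower, 36.2% in all. The median change of the constitutive regions was 0.10. The largest rises were from short cover to several kilobases.

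At chr3:28593695-28601838 cover was 419 and 283 bp at E12.5, 916 and 733 bp at E14.5, 782 and 1596 bp in ISC, and 7918 and 7984 bp in enterocytes (log2 change 2.97, SE 0.18, adjusted p = 0.000150). At chr9:54698077-54702831 it was 353 and 463 bp, 1102 and 1359 bp, 405 and 437 bp, and 4437 and 4212 bp in the same order (2.91, SE 0.14, adjusted p = 9.10e-05), and no base was covered in all 8 libraries. At chr3:96631579-96638015 it was 2069 to 2717 bp in the embryo, 368 and 1325 bp in ISC, and 6153 and 6150 bp in enterocytes (3.00, SE 0.24, adjusted p = 0.000377). Enterocytes lay above all other libraries in the 3 regions.

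The largest fall of the step was at chr11:112916817-112927423. There cover was 6162 and 7841 bp at E12.5, 9351 and 8509 bp at E14.5 and 9263 and 10471 bp in ISC, and dropped to 240 and 234 bp in enterocytes (log2 change −3.44, SE 0.13, adjusted p = 6.72e-05). The enterocyte libraries each held 1 peak of near-minimal length in a domain of about 10 kb, so the region counts as constitutive by a remnant. At chr16:96075322-96085160 cover was 355 and 682 bp at E12.5, 2273 and 1737 bp at E14.5, 8626 and 9778 bp in ISC and 473 and 378 bp in enterocytes (−2.95, SE 0.17, adjusted p = 0.000130). At chr5:104245492-104254004 it was 1886 and 2883 bp, 1351 and 1405 bp, 6585 and 8513 bp, and 235 and 381 bp in the same order (−2.92, SE 0.14, adjusted p = 9.82e-05). Neither of the last 2 had a base in common to all 8 libraries.

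The direction of this step as a whole depended on the scale. Without scaling 194 constitutive regions were higher and 4602 lower in enterocytes. Higher calls then made up 4.05%, against 63.6% with scaling. Over all regions tested they made up 20.5% without scaling and 40.2% with scaling. The median change over all regions moved from 0 to −0.26 (−0.42 over the constitutive regions). With cover scaled by the length in the constitutive regions themselves, 6720 of all regions tested were higher and 12696 lower. Of the constitutive regions, 1687 were higher and 2305 lower. Without the first or the second enterocyte library 1029 and 1247 were higher and 1138 and 1552 lower, which turned the balance, and 1148 were higher without the second and 581 lower without the first ISC library.

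**Figure D4:**
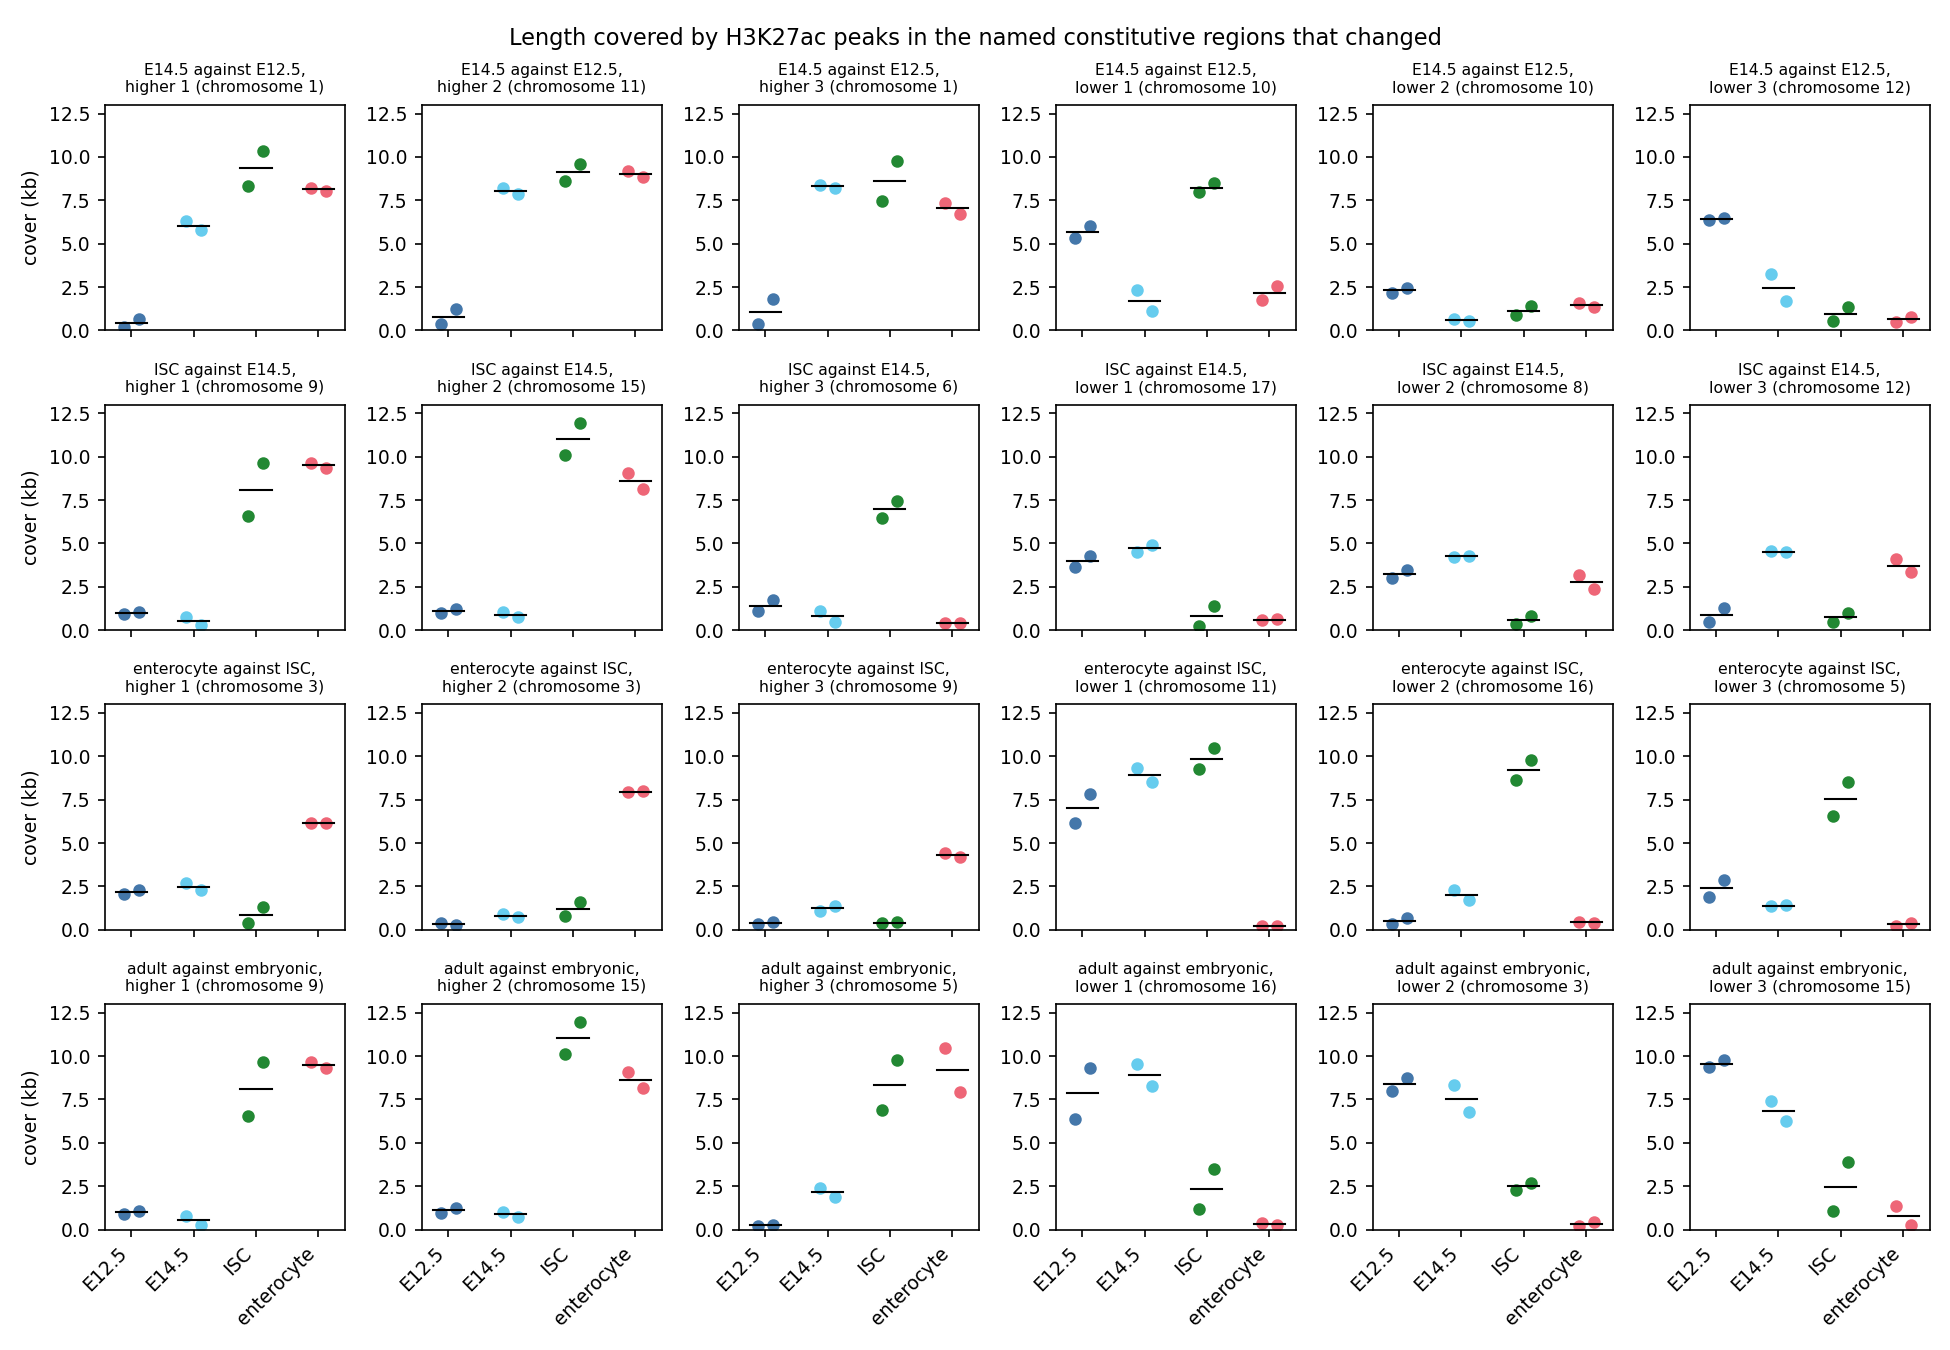
Length covered by peaks (y axis, kb, as deposited) in each of the 2 libraries of a group (points) with the group mean (line), for the 3 constitutive regions with the largest rise and the 3 with the largest fall in each of the 4 comparisons (rows). In the first fall from ISC to enterocytes, on chromosome 11, cover drops from 9263 and 10471 bp to 240 and 234 bp.

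Over the whole interval, 2663 constitutive regions had longer and 2464 shorter cover in the 4 adult than in the 4 embryonic libraries, 43.0% of the set. Over all regions tested 28.9% were higher and 38.1% lower, 67.0% in all. These calls use the spread between replicates alone. When the 4 libraries of an age were fitted with a single mean, so that E12.5 and E14.5, or ISC and enterocytes, added to the spread, 1035 were higher and 683 lower, against 4092 and 7327 of all 53123 regions.

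The chromosome 9 and chromosome 15 regions described for ISC had the largest rises (log2 change 3.06 and 2.94, SE 0.14 and 0.10, adjusted p = 4.03e-05 and 2.00e-05), followed by chr5:53492332-53503245. There the group mean grew at each step, from 224 and 264 bp at E12.5 to 2412 and 1883 bp at E14.5, 6905 and 9775 bp in ISC and 10452 and 7898 bp in enterocytes (2.89, SE 0.10, adjusted p = 2.28e-05), with no base common to all libraries. The largest falls were at chr16:4598017-4608446, chr3:88332873-88341751 and chr15:77734089-77743915. The chromosome 16 region had 6369 to 9536 bp in the embryo, 1211 and 3497 bp in ISC and 361 and 270 bp in enterocytes (−2.53, SE 0.17, adjusted p = 0.000139). The chromosome 3 region had 6761 to 8760 bp, 2283 and 2697 bp, and 229 and 406 bp (−2.38, SE 0.13, adjusted p = 6.97e-05), and the chromosome 15 region 6277 to 9772 bp, 1070 and 3870 bp, and 1327 and 287 bp (−2.19, SE 0.38, adjusted p = 0.00431). In all 3 the enterocytes had the lowest group mean, below that of ISC.

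Without scaling, 39.2% of the calls over all regions tested were higher in the adult, against 43.1% with scaling. Among the constitutive regions 1666 were then higher and 3818 lower, so that 30.4% of calls were higher against 51.9% with scaling. Of the libraries left out, only the second E14.5 library moved a count by more than 1.5 times (1499 lower).

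Most constitutive regions passed the test at none of the 3 steps: 7430 (62.4%) were called at no step. A change at the last step alone was the commonest course, with 1240 regions (10.4%) longer and 825 (6.93%) shorter in enterocytes than in ISC and no call before. Changes at the step from E14.5 to ISC alone were fewer, with 376 longer and 355 shorter, and at E14.5 alone there were 320 longer and 104 shorter. Regions called at all 3 steps in the same direction numbered 57 rising and 5 falling. A missed call in a design of 2 libraries a group does not show that cover stayed the same. These courses are from the scaled fit, and the balance at the last step turned without scaling (194 higher and 4602 lower in enterocytes). Over all regions tested, 25.1, 35.9 and 36.2% were called at the 3 steps. The courses were not counted over all regions, so nothing particular to the constitutive ones is read from them.

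Constitutive regions were spread over all chromosomes in the files other than M, where the 1 merged region was in a single library. Their density, per Mb between the first and last region of a chromosome, was 3.44 to 8.41 on the autosomes (median 5.05), highest on chromosomes 11 (8.41), 19 (7.56) and 17 (6.71) and lowest on chromosomes 1 (3.44), 14 (3.45) and 12 (3.50). The share of regions that were constitutive varied less, from 12.51% on chromosome 12 to 17.8% on chromosome 17. Chromosome X held 259 at a density of 1.61 per Mb, below every autosome, yet its share of 15.3% lay within the autosomal range. All merged regions together were also sparse on X, at 10.6 per Mb against 25.45 to 48.2 per Mb on the autosomes. Chromosome Y held 2 constitutive regions of 16.

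On X the constitutive regions were also narrower. Their median cover was 0.82 and 0.85 times the autosomal median in the E12.5 libraries, 0.79 and 0.78 times at E14.5, 0.77 and 0.77 times in ISC, and 0.62 and 0.67 times in enterocytes. The medians themselves were 866 and 994 bp on X against 1386 and 1490 bp on the autosomes in enterocytes. Both enterocyte libraries lay below the other 6. The adult animals were male; the part of sex in these values was not tested.

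**Figure D5:**
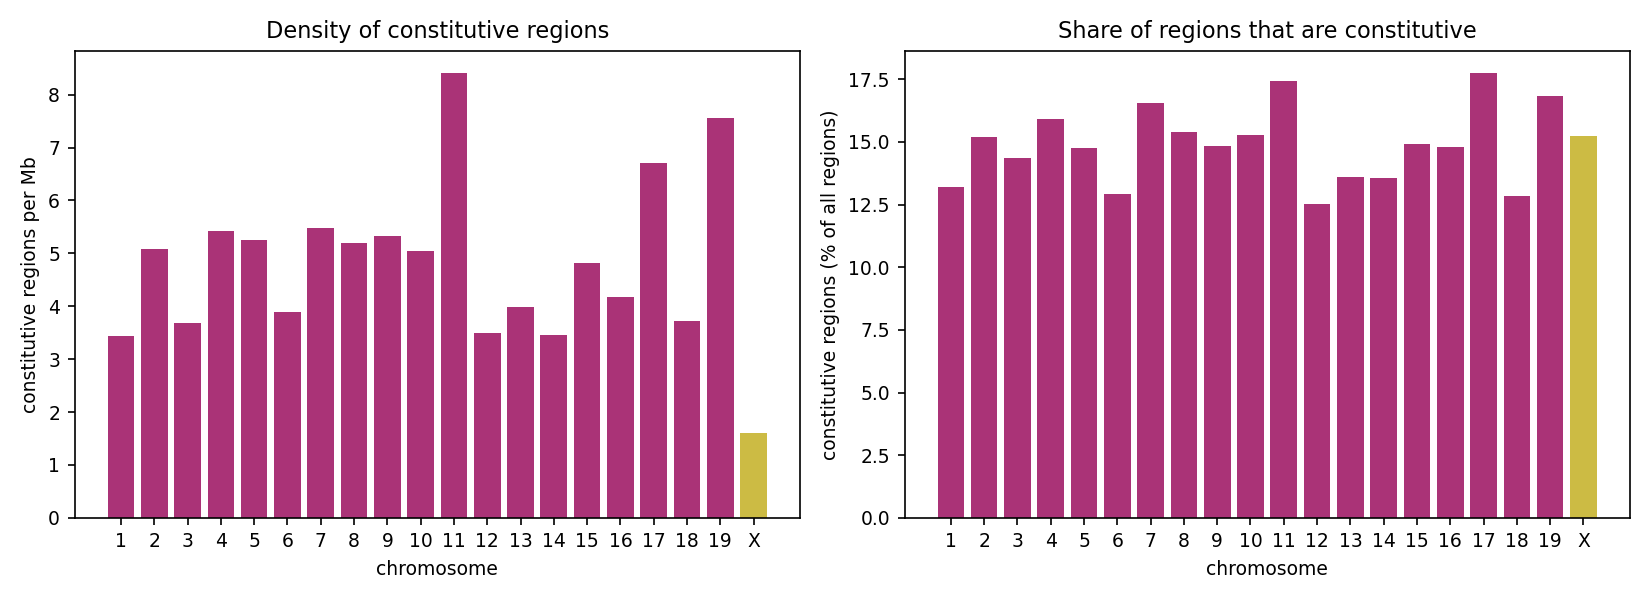
Constitutive regions per Mb (left) and as a percentage of all merged regions (right) for chromosomes 1 to 19 (purple) and X (yellow). Of these chromosomes X has the lowest density, 1.61 per Mb, but a share of 15.3%, within the autosomal range of 12.51 to 17.8%.

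Constitutive regions often had others close by. The median gap to the nearest one was 19.3 kb, 4234 (35.6%) had another within 10 kb, and 1560 (13.1%) had none within 100 kb. They formed 9467 runs in which neighbours lay at most 10 kb apart, and 7676 of these were a single region. The run with the most regions held 9 over 52.2 kb at chr15:78855409-78907657. Runs of 7 regions lay at chr17:27144389-27204817, which spanned more, 60.4 kb, and at chr5:93305488-93355409, chr10:80811173-80860581, chr11:80586345-80635663 and chr8:73276102-73322528.

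At a larger scale the densest megabase was chr10:80000000-80999999, with 50 constitutive regions, and the megabase before it held 44. The next were on chromosome 7 (134000000 to 134999999, with 40) and on chromosome 11 (115000000 to 115999999, with 37). The chromosome 7 megabase contains the region with the steadiest high rank. Seen against all H3K27ac regions, the constitutive ones were the less crowded: 68.1% had any other merged region within 5 kb, against 80.5% of the other regions. The part of region length in this comparison was not tested.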

How the data were processed

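H3K27ac ChIP-seq peak lists of 8 libraries were analysed; the 8 input libraries served as MACS controls. The tools named in the submitters' processing notes are bcl2fastq 1.8.4, Bowtie 1.1.2, SAMtools 1.2 and MACS2, with the build mm9. Per the file headers, MACS 2.1.0.20140616 called narrow peaks for each library against its own input at a q-value of 0.05, with 1 tag kept per position. Per the file headers, each list gives peak positions, the pileup signal at the summit, −log10 p and q, and the fold enrichment ratio over local background; these scores are the authors' and were used only within a list. The lists give no counting error for peak lengths. Errors of the fit come from the spread between the 2 libraries of each group, pooled over the 4 groups and moderated across regions by limma.

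Peaks were merged with Python 3.11.15 (pandas 2.3.3). Cover is the length under a library's peaks in a region. It was scaled by the library's total cover to the mean of the 8 libraries, and log2(cover + 500) was fitted with limma 3.58.1 (lmFit, then eBayes with trend and robust, 4 group means, 4 residual degrees of freedom). Scripts were tested on simulated data. The members and tests were chosen with earlier results of these data known, and for that reason the exact permutation tests planned for means over the constitutive regions are not reported here. Named regions are those with the greatest smallest cover (5), the highest (5) and lowest (3) rank in every library, the most even scaled cover at a mean of at least 2 kb (5), the longest common stretch (3), those nearest the length limit, and the 3 called regions with the largest rise and fall per comparison whose groups did not overlap. Alternatives covered the peak threshold, merging, presence, scaling, the added length, the filter and single libraries. The reference tables are on GRCm38.p6 and not on mm9; coordinates were not converted, and no gene names or sequences are given.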

Additional observations from a re-analysis of the deposited data

How the results depend on the processing

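The number of constitutive regions was within 1.5 times of 11910 under every alternative but 1: 3898 when a library had to cover at least 50% of a region. It was 11678 with at least 1 base covered in all 8 libraries, 8981 when only peaks with −log10 q of 10 or more were kept, and 11977 to 13005 with a library left out. Of the counts of changed regions over all alternatives, 111 lay within 1.5 times of the reported value and 43 did not. With the stricter q, 213 constitutive regions were higher and 121 lower at E14.5, and 391 higher and 346 lower in ISC. Enterocytes had 448 lower, and the adult 1427 higher and 1492 lower. Over all 31906 regions tested, 3437 were higher and 2092 lower at E14.5, and 4457 higher and 4586 lower in ISC. In enterocytes 6727 of these were lower, and in the adult 8527 were higher and 10068 lower. Of the constitutive regions with 50% cover, 0 were higher and 24 lower at E14.5, and 24 higher and 48 lower in ISC. Enterocytes had 804 higher and 0 lower, and the adult 539 higher and 67 lower. At an unadjusted limma p under 0.05, this set held 203 regions at E14.5 and 1389 in enterocytes, in either direction. The 50% rule limits how far unscaled cover can differ, and scaling then raises the short enterocyte lists. The one-sided enterocyte counts are thus tied to the rule and the scaling, and nothing is read from them. Fewer regions entered under the stricter q and under 50% cover, and the shares called were smaller too. At E14.5 they were 3.72 and 0.616% of the set, against 8.72%, and in enterocytes 20.5 and 20.6%, against 26.97%. With the stricter q, 5529 of all 31906 regions tested were called at E14.5 and 10917 in enterocytes. The 50% rule left the calls over all regions unchanged.

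Without scaling, 26 were lower at E14.5, 376 lower in ISC, 194 higher and 4602 lower in enterocytes, and 1666 higher and 3818 lower in the adult. Scaled by cover in the constitutive regions, 6202 of all regions tested were lower at E14.5, 12696 in enterocytes and 21906 in the adult. Of the constitutive regions, 583, 2305 and 4181 were lower in the same order. With 2 group means, 1035 were higher and 683 lower in the adult. With the replicate number as a block, 167 were lower at E14.5 and the other 7 counts stayed within 1.5 times. Deviations of same-numbered libraries correlated between groups at −0.14 to 0.13 over all regions tested and at −0.16 to 0.20 over the constitutive regions. Such values cannot settle whether same-numbered libraries shared animals or handling.

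With a library left out, E14.5 had 272 to 846 higher and 37 to 307 lower, ISC 430 to 1092 higher and 249 to 980 lower, enterocytes 1029 to 2259 higher and 581 to 1552 lower, and the adult 2078 to 3006 higher and 1499 to 2835 lower. A group left with 1 library is assumed to vary like the others. The adult minus embryonic difference in mean cover was −317 to 5.69 bp, turning to 0.287 bp without the first E14.5 and to 5.69 bp without the second enterocyte library; that in peaks per region turned to 0.0202 with equal numbers of peaks. The causes were not tested. The 24 named changes kept their direction in the 413 values that refitted them, and 9 of these missed the threshold (adjusted p up to 0.123). They were picked as the largest called changes with groups that did not overlap, so a kept direction was nearly fixed by that choice. The sizes of the named changes shrank with 2000 bp added in place of 500 bp, as for the fall in enterocytes at chr11:112916817-112927423, from −3.44 to −2.17.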
